A study of Mus musculus with 5 samples.

Results

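The genes described here are the small nucleolar RNAs (snoRNAs) and small Cajal body RNAs (scaRNAs) that were detected by RNA sequencing in mice after a sham operation or an ischemic stroke. They are the genes whose symbol begins with Snora or Snord and a digit, or with Scarna, and whose mean normalized read count over all libraries was at least 1. The members were thus chosen by symbol and by that mean, and by no fold change or p. Of 51912 genes in the table, 149 had such a symbol. No read was counted for 75 of these, 19 had a mean under 1, and 55 passed. The 55 genes comprised 35 C/D box snoRNAs, 14 H/ACA box snoRNAs and 6 scaRNAs. Just inside the limit were Snord85 (mean 1.03) and Snora34 (mean 1.05), and just outside it were Snord82 (mean 0.997) and Snora2b (mean 0.984), all in the authors' deposited table.

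All mice were of the C57BL/6 strain. The sham group had 2 libraries and the stroke group had 3, and nothing in the sources used here says whether a library came from 1 animal or a pool. Stroke was made by a filament that closed the middle cerebral artery for 30 minutes, and animals were kept when cerebral blood flow fell by at least 80%. Motor function was scored at 24 hours, and neither the tissue nor the sampling time is given in the sources used here. RNA was made into libraries with a KAPA stranded kit for messenger RNA, which selects polyadenylated molecules. All 12 marker genes of neurons, glia and brain vessels were detected. Of these, 0 were called, which is near the shares over all genes with an adjusted p (0.786% lower and 0.775% higher). Snap25, a synaptic protein of neurons, had a mean of 65803 in the authors' deposited table.

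As background, snoRNAs and scaRNAs are short, stable RNAs without a poly(A) tail that direct chemical changes in other RNAs by base pairing. C/D box RNAs guide methylation of the ribose and work with fibrillarin, whereas H/ACA box RNAs guide the conversion of uridine to pseudouridine and work with dyskerin. snoRNAs act mostly on ribosomal RNA in the nucleolus, and scaRNAs act on spliceosomal RNAs in Cajal bodies. Most are cut from introns of host genes, and a few, such as Scarna2, have promoters of their own.

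The sequences of 7 of these RNAs are printed here because the differences between libraries turn on them. They are the 6 RNAs with an unadjusted p below 0.05 and Snora17, which has the highest mean of those with a positive fold change, and were read from GENCODE M21 on the GRCm38 build, 5′ to 3′. Capitals mark the C box TGATGA and the D box CTGA of C/D RNAs, or the ACA box of H/ACA RNAs. Of Scarna2, bases 115 to 414 are shown, at chr3:108554338-108554637 (minus strand), and the others are shown whole. Scarna2 as a whole lies at chr3:108554338-108554751 (minus), Scarna13 at chr12:105031075-105031349 (minus), Snora73b at chr4:132352322-132352526 (minus) and Scarna6 at chr1:87784556-87784820 (plus). Snord17 lies at chr2:144265979-144266216 (minus), Scarna9 at chr9:15326264-15326333 (minus) and Snora17 at chr2:26639190-26639321 (minus).
Scarna2: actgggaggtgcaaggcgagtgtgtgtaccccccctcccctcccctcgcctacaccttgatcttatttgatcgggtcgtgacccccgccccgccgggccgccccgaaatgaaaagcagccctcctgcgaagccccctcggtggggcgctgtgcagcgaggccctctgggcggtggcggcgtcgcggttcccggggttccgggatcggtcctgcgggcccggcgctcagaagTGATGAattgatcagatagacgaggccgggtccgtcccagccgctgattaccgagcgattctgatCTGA
Scarna13: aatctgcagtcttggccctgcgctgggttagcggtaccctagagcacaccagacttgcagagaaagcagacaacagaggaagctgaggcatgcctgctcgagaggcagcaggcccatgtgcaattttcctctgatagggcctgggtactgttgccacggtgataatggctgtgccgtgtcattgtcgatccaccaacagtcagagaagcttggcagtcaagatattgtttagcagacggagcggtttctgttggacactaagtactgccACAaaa
Snora73b: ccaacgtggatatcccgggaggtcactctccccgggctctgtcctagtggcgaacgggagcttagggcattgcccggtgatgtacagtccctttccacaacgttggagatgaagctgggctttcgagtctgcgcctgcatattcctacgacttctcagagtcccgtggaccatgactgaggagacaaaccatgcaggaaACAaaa
Scarna6: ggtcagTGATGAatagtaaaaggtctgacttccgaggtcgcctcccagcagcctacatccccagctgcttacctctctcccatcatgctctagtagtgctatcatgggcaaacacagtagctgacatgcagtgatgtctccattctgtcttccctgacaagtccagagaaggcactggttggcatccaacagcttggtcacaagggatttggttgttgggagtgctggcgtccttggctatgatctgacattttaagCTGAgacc
Snord17: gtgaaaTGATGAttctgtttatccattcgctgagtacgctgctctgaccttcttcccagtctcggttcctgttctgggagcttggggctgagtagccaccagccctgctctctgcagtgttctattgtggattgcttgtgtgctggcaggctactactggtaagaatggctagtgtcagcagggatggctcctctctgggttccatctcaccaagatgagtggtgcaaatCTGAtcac
Scarna9: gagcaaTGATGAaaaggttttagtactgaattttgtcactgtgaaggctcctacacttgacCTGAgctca
Snora17: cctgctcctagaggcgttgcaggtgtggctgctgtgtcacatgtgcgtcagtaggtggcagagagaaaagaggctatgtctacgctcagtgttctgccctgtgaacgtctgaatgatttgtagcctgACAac

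The boxes followed the names. Searched on the RNA strand alone, since the RNA is the transcribed strand, TGATGA was found in 25 of 35 C/D snoRNAs, 0 of 14 H/ACA snoRNAs and 4 of 6 scaRNAs. CTGA in the last 20 bases was found in 34, 2 and 4 of them, and ACA in the last 8 bases in 3, 14 and 2. Among all 1559 annotated mouse snoRNAs and scaRNAs, TGATGA was found in 26.6%, CTGA near the end in 34.8% and ACA near the end in 47.5%. The RNAs were 64 to 414 bases long, with a median of 94, and only Scarna2, Scarna13, Scarna6, Snord17 and Snora73b were annotated at 200 bases or more. All 55 were found in GENCODE, on 18 chromosomes. Scarna9 is annotated there as a snoRNA of 70 bases, and Snord43 has the biotype miRNA.

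The fold change is on the log2 scale, stroke over sham, with its standard error (SE) from the authors' DESeq2 fit. A gene was called when its adjusted p in that fit was below 0.05. Reads are whole reads per library, worked back from the deposited mean, fold change and SE, and normalized reads are those divided by the authors' size factors. Size factors of stroke libraries were 1.16, 1.13 and 1.12, and those of sham libraries were 0.945 and 0.734. The stroke libraries are numbered by falling size factor and the sham libraries named deeper and shallower by theirs, because nothing ties them to the numbers in the labels. The total depth of each library is not given in the sources used here.

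Scarna2, Scarna13 and Snora73b were lower in stroke, and no snoRNA or scaRNA was called higher. Only 7 of the 55 had an adjusted p in the authors' table as deposited, and 49 had a mean under 10. Of those 7, 3 were called lower, whereas 0.786% of the 17420 genes with an adjusted p were called lower and 0.775% higher. In all 3, most reads came from 1 sham library, the shallower. The SE of the 55 fold changes ran from 0.85 to 4.38 on the log2 scale with a median of 2.06, against a median of 0.33 over the genes with an adjusted p, all in the authors' deposited table.

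Scarna2, a C/D-type scaRNA known to guide methylation of a spliceosomal RNA, had 4, 4 and 3 reads in stroke, 6 in the deeper sham library and 848 in the shallower one. Its stroke libraries were at 3.23 ± 0.47 normalized reads (SD, n = 3), against 6.35 and 1155 in the sham libraries. The 3 stroke libraries lay below both sham libraries, and the deeper sham library was closer to them than to the other sham library. Scarna2 had a log2 fold change of -7.49 (SE 1.87, DESeq2 adjusted p = 0.0103) in the authors' deposited table. Against the deeper sham library alone its log2 ratio of mean normalized reads, with a pseudocount of 1, was -0.80, and against the shallower alone it was -8.10.

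Scarna13, an H/ACA-type scaRNA, showed the same layout. It had 3, 1 and 3 reads in stroke, 4 in the deeper sham library and 335 in the shallower one. Its log2 fold change was -6.81 (SE 1.88, DESeq2 adjusted p = 0.0273) in the authors' deposited table, and its log2 ratio was -0.78 against the deeper sham library alone. The shallower sham library held 96.8% of its reads (exact 95% binomial interval 94.4% to 98.4%) and 98.0% of those of Scarna2 (interval 96.9% to 98.9%), whereas that library made up 14.4% of the summed size factors. These intervals cover counting error only.

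Snora73b, an H/ACA RNA known for its part in cutting the ribosomal RNA precursor, had 5, 9 and 8 reads in stroke, 4 in the deeper sham library and 142 in the shallower one. All 3 stroke libraries lay above the deeper and below the shallower sham library in normalized reads, so the groups overlapped. The log2 fold change was -3.93 (SE 1.13, DESeq2 adjusted p = 0.0382) in the authors' deposited table. Adjusted over every gene with a p-value, the DESeq2 p was 0.0694 and the call was lost. Against the deeper sham library alone the log2 ratio changed sign, to 0.52. Snora73a, a close relative in sequence, had reads but a mean under 1, and reads of the pair may have been split between them.

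The other 4 scaRNAs were also highest in the shallower sham library. Scarna6, a scaRNA that carries C and D boxes, had 3, 1 and 3 reads in stroke, 1 in the deeper sham library and 67 in the shallower. Its log2 fold change was -4.49 (SE 1.43, DESeq2 adjusted p = 0.0836) in the authors' deposited table, which did not pass, and its ratio against the deeper sham library alone was 0.57. Scarna9 had 1, 1 and 0 reads in stroke against 2 and 16 in the deeper and shallower sham libraries, and a log2 fold change of -4.34 (SE 1.87, DESeq2 p = 0.0203 without adjustment) in the authors' deposited table. Scarna17 had 4, 6 and 5 reads in stroke against 4 and 17, and Scarna3a had 0, 0 and 1 against 0 and 5. The shallower sham library was thus the highest of the 5 for 6 of 6 scaRNAs, which had a median log2 fold change of -4.41, with 6 of 6 negative, in the authors' deposited table. Scarna9 and Scarna3a passed the limit on the mean only with that library's reads, so their place in this count is a description. Of the 11046 genes whose reads were recovered, 40.3% were highest in that library and 7161 had a negative log2 fold change.

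**Figure D1:**
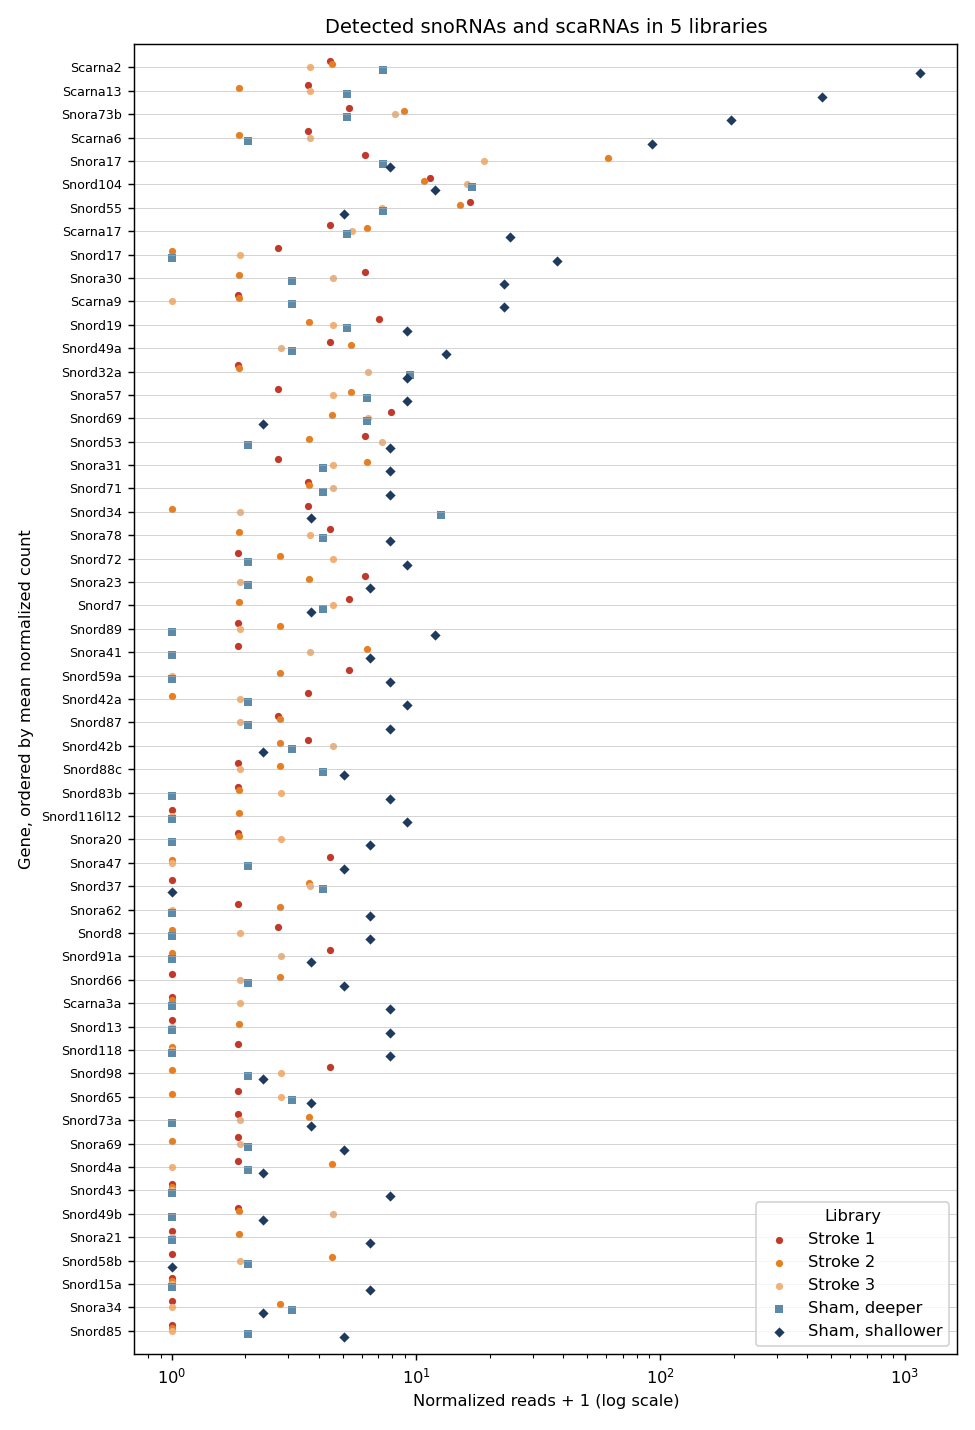
Normalized reads plus 1 (log scale, x axis) of each of the 55 snoRNAs and scaRNAs (y axis, ordered by mean) in the 3 stroke libraries (circles), the deeper sham library (squares) and the shallower sham library (diamonds). The diamond stands far to the right for Scarna2, Scarna13, Snora73b and Scarna6, whereas for most other RNAs the 5 points lie between 0 and 25 normalized reads.

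The H/ACA snoRNAs other than Snora73b held few reads. Snora17 had the highest mean among them after Snora73b and was high in 1 stroke library, with 6, 68 and 20 reads in stroke and 6 and 5 in the deeper and shallower sham libraries. In normalized reads stroke library 1, at 5.19, lay below both sham libraries, at 6.35 and 6.81, and the other stroke libraries lay above them, so the groups overlapped. Its log2 fold change was 2.08 (SE 1.11, DESeq2 adjusted p = 0.518) in the authors' deposited table. Without the second stroke library its log2 ratio was 0.73, against 1.92 with all libraries. Snora30 had 6, 1 and 4 reads in stroke and 2 and 16 in sham, Snora57 had 2, 5 and 4 against 5 and 6, and Snora31 had 2, 6 and 4 against 3 and 5. In normalized reads the groups overlapped for Snora30 and Snora31, whereas for Snora57 every stroke library lay below both sham libraries. Of 14 H/ACA snoRNAs, 12 had a negative log2 fold change, with a median of -1.16, in the authors' deposited table. Of the 11046 recovered genes, 7161 were negative.

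Of the C/D snoRNAs, Snord104, which had the highest mean count, had 12, 11 and 17 reads in stroke and 15 and 8 in sham, with a log2 fold change of -0.19 (SE 0.85, DESeq2 adjusted p = 0.988) in the authors' deposited table. Snord55 had 18, 16 and 7 reads in stroke and 6 and 3 in sham, with a log2 fold change of 1.19 (SE 1.07, DESeq2 adjusted p = 0.840) in the authors' deposited table. Stroke library 3 and the deeper sham library, at 6.27 and 6.35 normalized reads, overlapped. Snord17, which guides methylation of ribosomal RNA, had 2, 0 and 1 reads in stroke against 0 and 27. Its log2 fold change was -4.38 (SE 2.02, DESeq2 p = 0.0298 without adjustment) in the authors' deposited table.

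Snord19 had 7, 3 and 4 reads in stroke and 4 and 6 in sham, and Snord69, from the same host gene Gnl3, had 8, 4 and 6 against 5 and 1. The groups overlapped in both. Snord34 and Snord32a, both in introns of Rpl13a, were highest in the deeper sham library, with 3, 0 and 1 against 11 and 2 for Snord34 and 1, 1 and 6 against 8 and 6 for Snord32a. In normalized reads every stroke library lay below both sham libraries for this pair. Of the 35 C/D snoRNAs, 24 had a negative and 11 a positive log2 fold change, with a median of -1.14, in the authors' deposited table. That is near the share over the 11046 recovered genes, of which 7161 were negative.

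C/D RNAs with roles other than guiding ribosomal methylation were near the lower limit of detection. Snord118, needed for processing of the large ribosomal subunit RNAs, and Snord13, which acts on the small subunit RNA, had 1 read each in the stroke libraries together, 0 in the deeper sham library and 5 each in the shallower. Snord116l12 was the only gene of the imprinted Snord116 cluster with a mean of at least 1, of 17 in the table and 4 with a read. It had 0, 1 and 0 reads in stroke and 0 and 6 in sham. No row carried a Snord113, Snord114, Snord115 or Snord3 symbol. Snord43, Snord15a and Snord85 had 0 reads in all stroke libraries, against 0 and 5, 0 and 4, and 1 and 3 in the deeper and shallower sham libraries. They passed the limit on the mean through their sham reads alone, so their lower level in stroke followed from how they were chosen and is given as a description. Snord116l12, Snord13 and Snord118 passed it mostly through reads of the shallower sham library, so the same holds in part for them and for other RNAs of few reads. Members of the Snord116 cluster and pairs such as Snord49a and Snord49b are similar in sequence, and the counting of reads that align to several places is not given in the sources used here.

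Over all 55 RNAs, 42 log2 fold changes were negative and 13 positive, with a median of -1.45 in the authors' deposited table. Among the 11046 genes whose reads were recovered, 7161 were negative and 3885 positive. The median over the 24205 genes with a mean of at least 1 was -0.06, and it was -0.40 over the 11046 genes whose reads were recovered. With the 3 RNAs without stroke reads set at the bound that 3 reads over the stroke group allow, the median was -1.44. Summed over the 55, reads were 155, 197 and 155 in stroke, 121 in the deeper sham library and 1651 in the shallower one. Normalized, the sums were 134, 174, 139, 128 and 2250, so the deeper sham library lay just under the stroke libraries and the shallower stood alone.

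The sum turned on 4 RNAs. Without Scarna2, Scarna13, Snora73b and Scarna6, the shallower sham library held 259 of 825 reads (31.4%), against 1651 of 2279 (72.4%, exact 95% binomial interval 70.6% to 74.3%) with them. That interval covers counting error only and pools RNAs whose own shares ran from 0% to 100%. The median log2 fold change was -1.18 without the 4 RNAs and -1.45 with them. The shallower sham library was the highest of the 5 libraries in 40 of the 55 RNAs and the deeper in 5, whereas the shallower was the highest in 40.3% of the 11046 recovered genes. The shallower library held at least 80% of sham reads in 31 of the 55, against 23.5% of the recovered genes. A single read there adds 0.273 to the mean, against 0.173 to 0.179 in a stroke library. RNAs of few reads could thus pass the limit on the mean through the shallower library alone. These counts and the count of negative fold changes are therefore given as descriptions.

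Every stroke library lay below both sham libraries for 10 of the 55 (18.2%), against 15.7% of recovered genes, which is close to the background. These were Scarna2, Scarna13, Scarna9, Snord32a, Snora57, Snord34, Snord88c, Snord65, Snora69 and Snord85. Every stroke library lay above both sham libraries for 0 of the 55, against 8.94% of recovered genes. With size factors re-estimated from the recovered genes, the counts were 9 and 1, the latter being Snord55, and the median log2 ratio of all recovered genes moved by 0.15.

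Each library was also left out in turn with limma, run on log2 normalized reads plus 1 over the 11046 genes. With all libraries, limma called 0 snoRNAs or scaRNAs, with 3 at an unadjusted p below 0.05 and a smallest limma adjusted p of 0.689. It called 0 genes of any kind there, against the 3 RNAs called by DESeq2. Without the deeper sham library, 9 were called lower. These were Scarna2, Scarna13, Scarna6, Scarna9, Scarna17, Snora73b, Snord17, Snord43 and Snord89. The share called lower among all 11046 genes was then 11.4%. That fit has 1 sham library, which is assumed to vary like the stroke libraries. Scarna9, Snord17, Snord43 and Snord89 passed the limit on the mean only with the shallower library's reads. Their lower level in this fit thus followed in part from how they were chosen.

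Without the shallower sham library, limma called 0 of the 55, with 1 (Snord34) at an unadjusted p below 0.05 and a smallest limma adjusted p of 0.249, and the share called lower among all genes was 0.0724%. The median log2 ratio of the 55, with a pseudocount of 1, was -0.92 against both sham libraries, -1.43 against the shallower alone and 0.26 against the deeper alone. On the median these RNAs were lower in stroke against the shallower sham library and not against the deeper, which is given as a description. Some of them passed the limit on the mean only with the shallower library's reads. In the deeper library 18 of the 55 had 0 reads, and with 0 reads there the ratio cannot be negative. Over the 11046 recovered genes the medians were -0.33 against both, -0.26 against the shallower alone and 0.0 against the deeper alone. Without each stroke library in turn, limma called 0. With 1 library left per comparison, whether that library or the sham condition sets the level cannot be told apart.

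**Figure D2:**
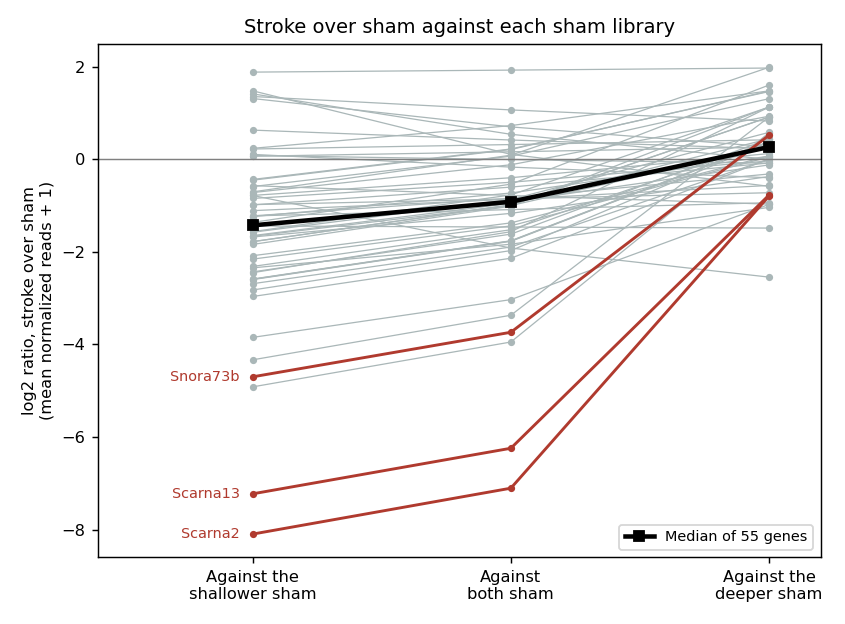
log2 ratio of mean normalized reads plus 1, stroke over sham (y axis), for each of the 55 RNAs (thin lines) when the 3 stroke libraries are set against the shallower sham library, both sham libraries or the deeper sham library (x axis). The median (black) goes from -1.43 through -0.92 to 0.26, and Scarna2, Scarna13 and Snora73b (red) go from -8.10, -7.23 and -4.70 to -0.80, -0.78 and 0.52.

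Annotated length went with the split between the sham libraries. The 5 RNAs of 200 bases or more had 1419 of 1484 reads (95.6%) in the shallower sham library and a median log2 fold change of -4.49 in the authors' deposited table. The 20 RNAs of at least 100 and under 200 bases had 32.7% of their reads there and a median of -1.62, and the 30 under 100 bases had 27.0% and a median of -0.74, in the same deposited table of the authors. The 30 shortest RNAs thus lay nearest to 0. Across the 55 RNAs, length and the share of reads in the shallower sham library had a Spearman rho of 0.547 and a Pearson r of 0.558, and the 50 under 200 bases had a Spearman rho of 0.412. These describe RNAs that share the same 5 libraries and are not independent replicates. Some of the RNAs passed the limit on the mean only with the shallower library's reads. Class moved with length, since 28 of the 30 shortest were C/D snoRNAs and 3 of the 5 longest were scaRNAs.

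**Figure D3:**
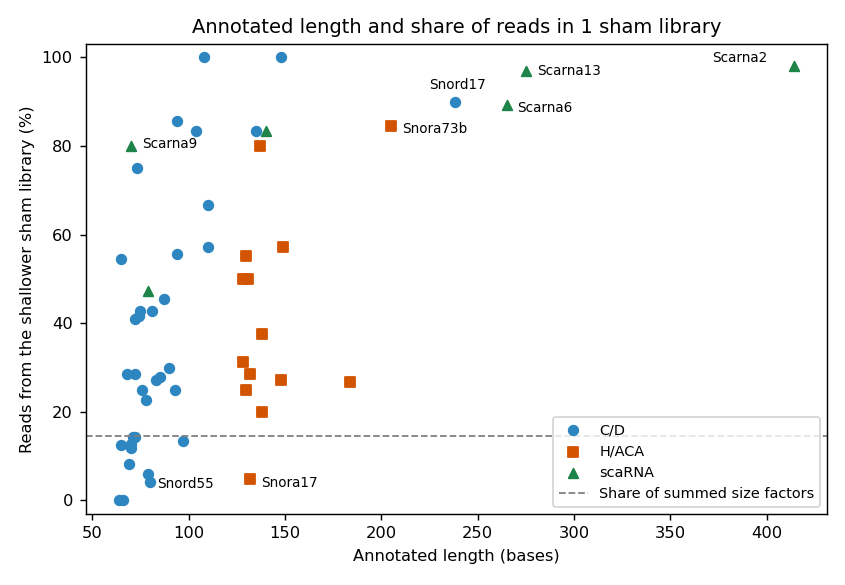
Annotated length in bases (x axis) and the percent of all reads of that RNA that came from the shallower sham library (y axis) for 35 C/D snoRNAs (circles), 14 H/ACA snoRNAs (squares) and 6 scaRNAs (triangles), with the 14.4% that this library makes up of the summed size factors as a dashed line. All 5 RNAs of 200 bases or more lie above 80%, whereas shorter RNAs spread from 0 to 100%.

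Of the 55, 48 lay inside a host gene on the same strand, 44 in an intron and 4 over an exon. The 45 host genes, of which 44 had a read and 42 an adjusted p, had 0 calls, which is near the shares over all genes (0.786% lower and 0.775% higher), with 25 positive and 19 negative log2 fold changes from -1.04 to 1.77 and a median of 0.08 in the authors' deposited table. Snhg10, the noncoding host of Scarna13, had 46, 44 and 35 reads in stroke and 44 and 29 in the deeper and shallower sham libraries. Snhg3, the noncoding host of Snora73b, had 91, 60 and 86 against 80 and 93. In normalized reads the hosts ran from 31.4 to 46.6 and from 53.0 to 127 across the libraries, whereas Scarna13 ran from 0.884 to 456 and Snora73b from 4.23 to 193.

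The log2 fold changes in the authors' deposited table were -0.23 for Snhg10 and -0.60 for Snhg3 (SE 0.50 and 0.42). They were 0.04 for Atg16l1, host of Scarna6, -0.09 for Snx5, host of Snord17, and -0.27 for Cep295, host of Scarna9, in the authors' deposited table. The 11 ribosomal protein hosts had a median of 0.80 with 9 positive and 0 called in the authors' deposited table. The 15 RNAs within them had a median of -1.61 with 10 negative there, and 7161 of the 11046 recovered genes were negative. Snord43, Snord15a, Snora21, Snora62, Snora69, Snord83b and Snord42a of these 15 passed the limit on the mean only with the shallower sham library's reads. Their negative sign thus followed in part from how they were chosen, and both medians are given as descriptions. Snhg14, the long host of Snord116l12, had -1.04 (DESeq2 adjusted p = 0.359) in the authors' deposited table.

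Lists of proteins that bind or process these RNAs had 0 calls, which is near the shares over all genes (0.786% lower and 0.775% higher). The lists were the C/D core proteins (5 genes tested), the H/ACA core proteins (4), assembly factors (15), Cajal body proteins (15), small subunit processome proteins (32), intron release and end trimming (20) and RNA polymerase I transcription (17), and each had 0 calls. At an unadjusted p below 0.05 there were 2, 0, 2, 1, 1, 1 and 0 genes of them, and 10.5% of all 17420 tested genes. Fbl, the methyltransferase of C/D particles, had a log2 fold change of 1.14 (SE 0.53, DESeq2 adjusted p = 0.380) and Snu13, which binds the C/D fold, 0.79 (SE 0.36, DESeq2 adjusted p = 0.359) in the authors' deposited table. Nop58 and Nop56, scaffolds of C/D particles, had -0.06 and 0.21, and Dkc1, the pseudouridine synthase, had 0.33, in the authors' deposited table. Of 22 genes tested on a list of snoRNA host genes and related genes, among them Snrpn and Ube3a, 1 was called, beside those same shares over all genes. That was Mirg, a noncoding RNA of an imprinted cluster, with -2.05 (SE 0.32, DESeq2 adjusted p = 1.22e-07) in the authors' deposited table, and Meg3 of the same cluster had -0.82 (SE 0.36, DESeq2 adjusted p = 0.340) there.

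Other groups of genes moved with the snoRNAs and scaRNAs between libraries. The replication-dependent histone genes, whose messages also lack a poly(A) tail, had the shallower sham library highest in 41 of 43 recovered genes. Their summed normalized reads were 229, 301 and 276 in stroke and 304 and 5176 in the deeper and shallower sham libraries. Genes of snoRNA or scaRNA biotype under other symbols had the shallower highest in 109 of 134, with sums of 255, 238, 224, 294 and 5077 in the same order. Small nuclear RNA genes had it highest in 90 of 107, with sums of 204, 198, 181, 150 and 1365. Protein coding genes of the same range of means did not, with the shallower highest in 829 of 4040 (20.5%) and sums of 60388, 65828, 71341, 79245 and 62763. Recovered genes that were neither protein coding nor among the 55 had the shallower highest in 3580 of 6951 (51.5%). The shallower library was thus often highest outside these groups too.

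Of the 3 short RNAs made by RNA polymerase III whose reads were recovered, 2 were highest in the shallower sham library. Rny3 had 21, 8 and 3 reads in stroke and 1 and 500 in the deeper and shallower sham libraries, and Rny1 had 21, 13 and 2 against 0 and 249. Rn7sk, Rpph1 and Rmrp were called lower, with log2 fold changes of -9.28, -9.20 and -8.66 in the authors' deposited table. Their reads were not recovered, so their split between the sham libraries is not known. The part that the shallower sham library's content of RNA without a poly(A) tail had in the calls for Scarna2, Scarna13 and Snora73b was not tested.

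**Figure D4:**
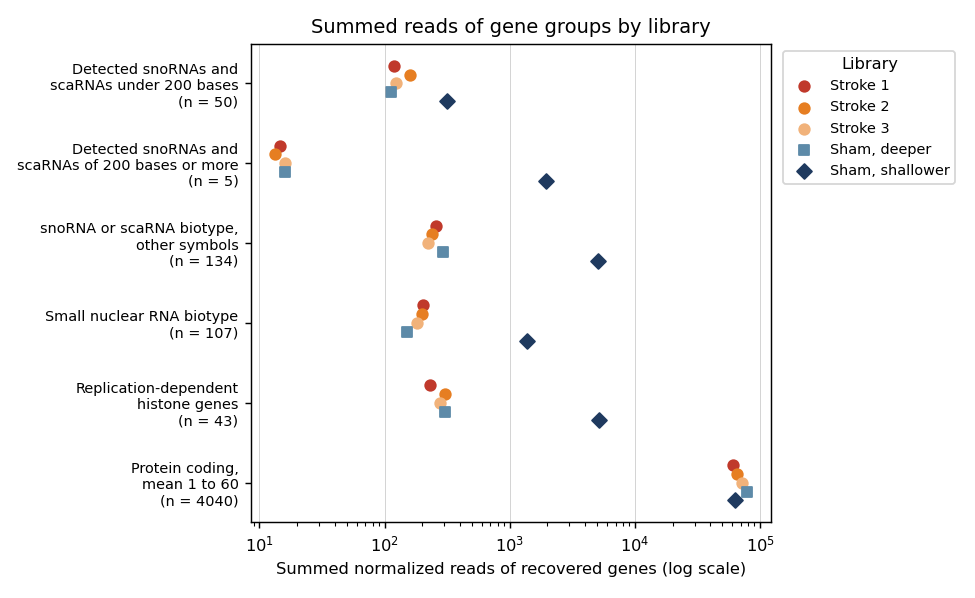
Summed normalized reads (log scale, x axis) of 6 groups of genes (y axis) in the 3 stroke libraries (circles), the deeper sham library (squares) and the shallower sham library (diamonds). The diamond lies to the right of the other libraries in the 5 groups of RNAs without a poly(A) tail, and among protein coding genes the 5 libraries lie between 60388 and 79245.

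Those markers of choroid plexus and blood whose reads were recovered were split the other way. Of 9 such markers tested, 7 were called lower and 0 higher in the authors' deposited table. The 5 with recovered reads had summed normalized reads between 26.0 and 111 in stroke, whereas the deeper sham library had 1283 and the shallower 204. Folr1, a choroid plexus folate receptor, had normalized reads of 3.46, 3.54 and 3.58 in stroke, 111 in the deeper sham library and 5.45 in the shallower one. Folr1 was the only choroid plexus gene among these 5, and the others were blood genes. For these 5, the sham library with most snoRNA and scaRNA reads was thus not the one with most marker reads. The reads of Ttr (mean 2616), Hbb-bs, Kl and Clic6 were not recovered, so their split between the sham libraries is not known. The part of these markers in the results was not tested, and in bulk RNA fewer cells of a type and less RNA per cell cannot be told apart.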

How the data were processed

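RNA was measured in 2 sham and 3 stroke libraries. The submitters' processing notes name STAR 2.5.2b and featureCounts 1.5.1, the build GRCm38, and FastQC and DESeq2 1.14.1. The annotation release, strand setting and handling of reads that align to several places were not stated. The authors deposited 1 DESeq2 results table with 51912 genes. Per the file headers, its mean is a signal that the authors made by dividing each read count by a size factor and averaging over libraries. The authors deposited a log2 fold change with its SE, a Wald score, a p-value and an adjusted p-value, the last for 17420 genes.

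The file does not name the numerator. The mean took 5 values among genes with a single read, 3 with a positive and 2 with a negative fold, so a positive fold was taken as higher in stroke, which has 3 libraries. The same values gave the size factors. Whole reads per library were recovered, from the mean alone up to a mean of 15 and above that also from fold change (to within 5e-06) and SE. This gave reads for all 55 snoRNAs and scaRNAs and for 11044 of 11087 genes with a mean of 1 to 60, and 2 of 500 genes with a shifted mean were accepted, against 497 unshifted. The recovery and limma were tested on simulated data. The authors' Wald test was used for calls. limma 3.58.1 with trend (R 4.3.3) on log2 normalized reads plus 1 was the alternative, over 11046 genes (the 11044 plus Scarna2 and Scarna13). Python 3.11.15 with numba 0.67.0 was used.

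The 55 genes and all lists were chosen with earlier results of these data known. The rule for named genes took the called RNAs, every scaRNA, the Snord13, Snord17, Snord118, Snord3, Snora73 and imprinted Snord families, the 6 highest means among Snora and among Snord, the 5 largest fold changes each way, and 2 RNAs on each side of the mean limit. Others, among them Snord34, Snord88c, Snord65, Snora69, Snord89 and Snord15a, were named after their values were seen. The libraries are not said to come from separate animals, so p-values may measure technical spread. Alternatives were other adjustments, filters, pseudocounts and size factors, and leaving out each library.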

Additional observations from a re-analysis of the deposited data

How the results depend on the processing

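The 3 calls of the authors' DESeq2 fit became 2 when adjusted over every gene with a p-value, where Snora73b was lost (adjusted p = 0.0694), 3 when only means of at least 20 entered, and 4 at an adjusted p below 0.1, where Scarna6 was added. limma with all libraries gave 0, and leaving out each library in turn gave 0 to 9, the 9 without the deeper sham library. RNAs under 200 bases were also tried without the deeper sham library, an alternative chosen after seeing the data. Of those called then, Scarna9, Snord43 and Snord89 passed the limit on the mean only with the shallower sham library's reads.

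The median log2 fold change of -1.45 was -3.93 among RNAs with an adjusted p, -6.81 at a mean of at least 20 and -1.54 over every symbol match with a read. On recovered reads it was -0.92, -1.08 and -0.50 with pseudocounts of 1, 0.5 and 4, and -0.75 with median-ratio size factors. Leaving out each library gave -1.43 to 0.26, the positive value without the shallower sham library. In 2 alternatives chosen after seeing the data it was -1.18 without Scarna2, Scarna13, Snora73b and Scarna6, and -1.16 under 200 bases. The cause of these shifts was not tested, except that a larger pseudocount draws low counts towards 0 by construction.

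The 10 RNAs lower in every stroke library were 3 at a mean of at least 5 and 2 at a mean of at least 9, which test fewer RNAs, and 9 with median-ratio size factors. The 0 higher in every stroke library became 1, Snord55, with median-ratio size factors. Without the shallower sham library, Snora73b changed sign, to 0.52 (from -4.70 to 0.52 over the left-out libraries). Other named RNAs did so too, among them Scarna6 (0.57) and Snord17 (0.91), which had 1 and 0 reads in the deeper sham library. With 0 reads there the ratio cannot be negative. Without the shallower library 11 of the 27 named RNAs were negative and 15 positive, against 22 and 5 in the authors' fit. Some RNAs were named for their fold changes, so these counts are a description. The 1 call in the protein and host lists was unchanged when adjusted over every gene with a p-value. No paired analysis was possible because the library values could not be tied to the replicate numbers in the labels. Most of these RNAs had under 10 normalized reads on average, which limits what could be detected.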
